A study of Homo sapiens with 6 samples.

Results

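The members described here are 42 genes that encode assembly factors of the large (60S) ribosomal subunit, out of 63677 genes counted in the series. They were chosen by symbol: a gene was taken where its name in the authors' deposited comparison table equalled one on the list, and it was joined by gene identifier to the count table. The cells were RPMI-8402, a human T-ALL (T cell acute lymphoblastic leukaemia) line, and all of them stably expressed Cas9, the nuclease that guide RNAs direct to a matching site. The control group of 3 samples received DMSO, the solvent. The other group of 3 samples was kept in doxycycline (DOX) for 72 hours, which turns on expression of guide RNAs that target MYC. The time given for the DMSO samples is also 72 hours. The labels give both groups the genotype MYC_KO, list no doxycycline control lacking the guides, and do not say whether replicates came from separate cultures. The p-values therefore measure only how these 6 samples vary, which may be technical variation.

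The large subunit is built in the nucleolus around a precursor ribosomal RNA. Assembly factors join it in steps: scaffold proteins and RNA helicases fold the early particle, enzymes cut and methylate the RNA, GTPases and placeholder proteins check or reserve sites, and large ATPases strip factors off before export to the cytoplasm. Genes of ribosome assembly are among the best known targets of MYC, a transcription factor that promotes growth in many leukaemias.

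Libraries held between 23121255 and 26214598 counts. MYC itself was not lower under doxycycline: its level was 409, 422 and 407 CPM (read counts relative to the library total after TMM scaling) in the DMSO samples and 459, 431 and 431 CPM in the DOX samples. The log2 fold change of MYC was 0.09 (SE 0.0489, edgeR adjusted p = 0.160), and MYC passed as higher when scaled by the upper quartile or by library size (0.14 in both, edgeR adjusted p = 0.0357 and 0.0281; all alternatives lay between 0.0281 and 0.441). Guide-directed cuts can disrupt a protein without lowering its RNA, so the RNA level does not check the labels. All 7 T lineage markers were detected, with summed levels of 2098 to 2179 CPM in DMSO and 2084 to 2181 CPM in DOX. CD7 was higher (0.48) and CD3G lower (-0.24, and not called with GC content and length corrected) in DOX. Markers of other cell types were low: 5 B lineage genes summed to 11.5 to 12.9 CPM in DMSO and 16.2 to 17.1 CPM in DOX with MS4A1 at 0, and 5 myeloid genes to 1.07 to 1.27 and 2.17 to 2.21 CPM. The 5 epithelial and stromal genes summed to 39.9 to 40.3 and 47.4 to 52.9 CPM, nearly all from COL1A1, with EPCAM and COL1A2 at 0. The part of these markers in the results below was not tested.

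Of the 42 large subunit assembly factors, 23 fell and 0 rose in the doxycycline samples (edgeR quasi-likelihood test, adjusted p under 0.05). Of all 15492 tested genes, 15.5% were called lower and 13.8% higher. Members were more abundant than most genes, with a median DMSO level of 81.1 CPM against 18.4 CPM over all tested genes. Across all tested genes the log2 DMSO level and the log2 fold change had a Pearson r of -0.37, and across members 0.11. The part of level in these counts was not tested. All 42 members passed the filter on low counts. At an unadjusted p under 0.05, 29 members were lower and 0 higher, and DESeq2 called 20 lower and 0 higher. Of the 15492 tested genes, 3246 were lower and 2963 higher at that unadjusted p, and DESeq2 called 2015 lower and 1653 higher. The changes were small. The largest fall was that of CEBPZ, 28.6% below the DMSO level, and the median log2 fold change over members was -0.16, against 0.00 over all tested genes. For 28 members all DOX samples lay below all DMSO samples, where 21.0% of all tested genes did so.

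Summed over the 42 members, levels were 4092, 4224 and 3871 CPM in DMSO replicates 1, 2 and 3, and 3670.1, 3601 and 3537 CPM in DOX replicates 1, 2 and 3. The DMSO samples averaged 4062 ± 178 CPM and the DOX samples 3603 ± 66.5 CPM (SD, n = 3 each), 11.3% lower, with no overlap. DMSO replicate 3 stood lowest of its group, with 34 of 42 members below their DMSO mean, against 20 and 11 in DMSO replicates 1 and 2. In the DOX samples 37, 38 and 38 members were below that mean. Without DMSO replicate 3, 27 members fell and the median was -0.22. With upper-quartile scaling 19 members fell, where 10.2% of all tested genes were lower. Over all genes 2137 were called higher and 2408 lower under TMM scaling (47.0% higher), against 2871 higher and 1585 lower with upper-quartile scaling. These are shares of each library's counts in bulk samples, so fewer cells of a kind and less RNA per cell cannot be told apart.

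**Figure D1:**
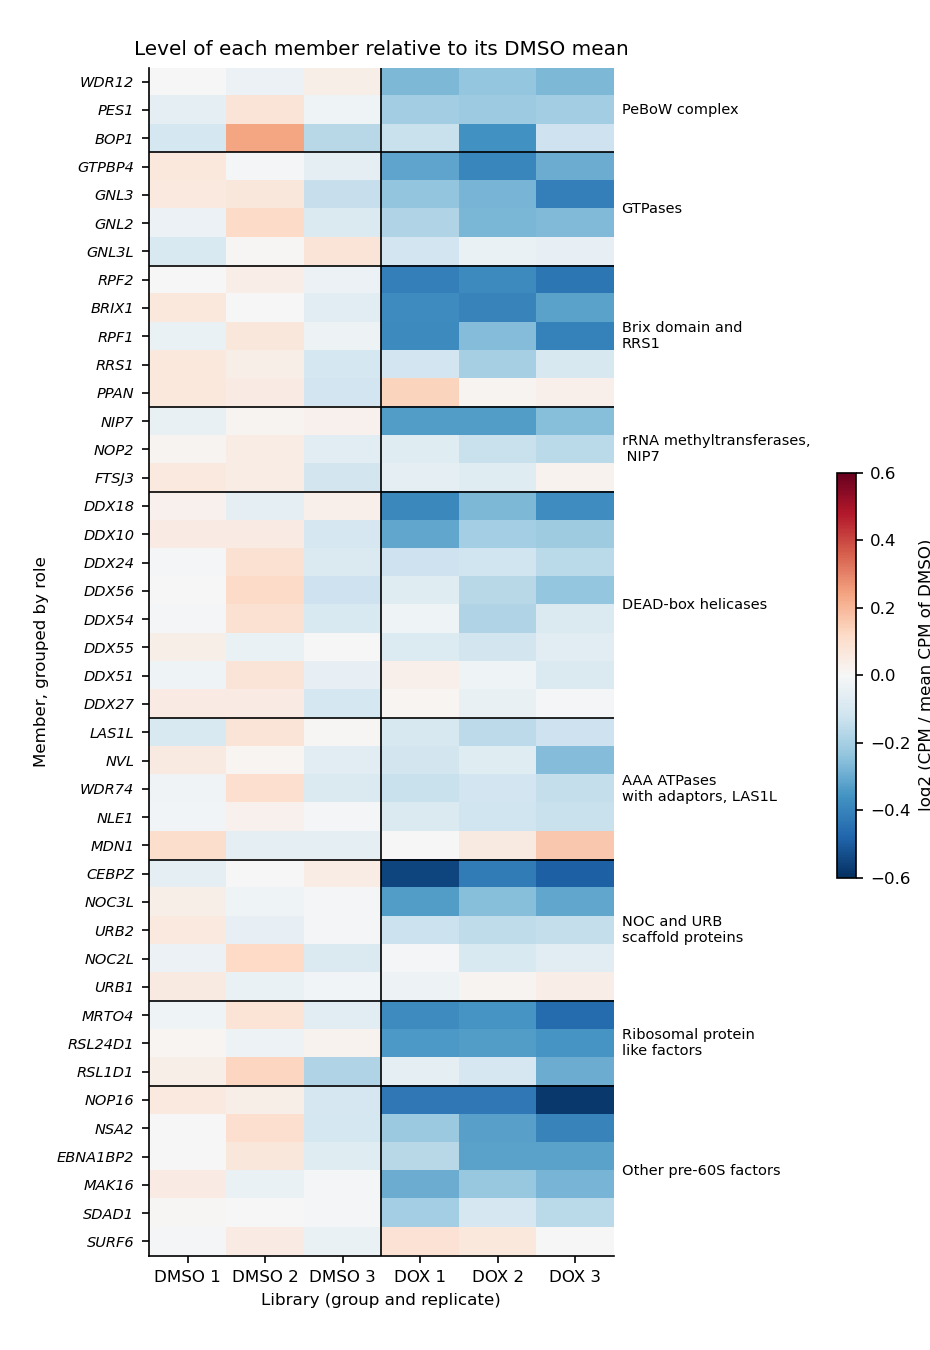
Level of each member in each library, as the log2 ratio of its CPM to its mean CPM in the 3 DMSO samples (colour, blue lower and red higher), with members in rows by role and libraries in columns. Most rows are blue across the 3 DOX columns, CEBPZ and NOP16 most deeply, while MDN1, PPAN and SURF6 are not, and DMSO replicate 3 is pale blue in many rows.

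Scaffold proteins bind the precursor RNA early. CEBPZ is the human counterpart of a yeast protein that pairs with the NOC2L counterpart in the first particles. It measured 82.6, 85.9 and 88.5 CPM in DMSO and 58.4, 64.0 and 61.0 CPM in DOX. The groups lay far apart, and CEBPZ had the smallest p of all members (log2 fold change -0.49, SE 0.0542, edgeR adjusted p = 5.61e-07). NOC3L, of the same family, fell by 0.30 on the log2 scale, and URB2, of an early scaffold, by 0.14. URB2 was not called by DESeq2. NOC2L (-0.06) and URB1 (0.01), the other scaffold proteins of these kinds, did not pass. With the GC content and length of genes corrected, an alternative taken up in full below, NOC3L no longer passed (-0.13), while NOC2L and URB1 did, at -0.17 and -0.16, so URB1 changed sign.

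The PeBoW complex of PES1, BOP1 and WDR12 is required to process the RNA that becomes the 28S and 5.8S species. WDR12 measured 55.9, 54.5 and 57.4 CPM in DMSO and 46.4, 47.6 and 46.4 CPM in DOX, with no overlap (log2 fold change -0.26, SE 0.0551, edgeR adjusted p = 0.00101). PES1 fell by 0.21 on the log2 scale, from 138 ± 6.94 to 119 ± 0.425 CPM (SD, n = 3 each). BOP1 measured 10.1, 12.8 and 9.65 CPM in DMSO and 9.87, 8.43 and 9.94 CPM in DOX. Its groups overlapped and it did not pass (-0.20, SE 0.104), with the widest error of all members. The symbol BOP1 has 2 identifiers in the table, 1 of them at 0 counts in all samples, so its count is uncertain.

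Among proteins with a Brix domain, an RNA-binding fold found in several ribosome assembly factors, 3 of 4 fell. RPF2, which with RRS1 brings the 5S RNA particle into the subunit, measured 43.9, 45.3 and 42.9 CPM in DMSO and 33.2, 33.8 and 32.6 CPM in DOX (log2 fold change -0.41, SE 0.0585, edgeR adjusted p = 1.54e-05). Its DOX samples were tightly grouped and all below the DMSO samples. BRIX1 went from 51.4, 49.1 and 47.2 to 37.9, 37.3 and 39.4 CPM (-0.37, SE 0.0586, edgeR adjusted p = 5.45e-05). RPF1 went from 70.9, 76.4 and 71.3 to 55.9, 60.8 and 55.02 CPM (-0.35, SE 0.0564, edgeR adjusted p = 6.11e-05). Neither had overlapping groups. With GC content and length corrected RPF2 and BRIX1 fell by less, 0.27 and 0.16 on the log2 scale, and RPF1 did not pass (-0.11). The partner of RPF2, RRS1, did not pass (-0.14), except without DMSO replicate 3 (-0.19, edgeR adjusted p = 0.0493, range 0.0493 to 0.360 over its alternatives). PPAN, the fourth Brix protein, did not pass (0.06, -0.02 after the correction). Its count is uncertain, since 56.0% of its exon bases are shared with the read-through gene PPAN-P2RY11 in GENCODE 29.

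A group of 3 members resembles ribosomal proteins. MRTO4 resembles the stalk protein P0 and holds its place on the immature subunit, and it went from 116, 125 and 113 CPM in DMSO to 90.9, 92.5 and 85.8 CPM in DOX (log2 fold change -0.40, SE 0.0531, edgeR adjusted p = 6.65e-06). Its value was also -0.40 with GC content and length corrected. RSL24D1, a placeholder for the ribosomal protein RPL24, went from 81.8, 79.5 and 82.2 to 63.9, 64.4 and 63.5 CPM (-0.34, SE 0.0513, edgeR adjusted p = 2.44e-05). The samples of each group lay close together and the groups far apart, but after the correction RSL24D1 did not pass (-0.10). It has 9 named pseudogene copies in GENCODE 29, which held at most 8 counts in any library. RSL1D1, with a fold like that of ribosomal protein L1, had the highest CPM of all members and overlapping groups, at 361 ± 38.7 CPM in DMSO and 326 ± 28.5 CPM in DOX (SD, n = 3 each). It did not pass (-0.15), except without DMSO replicate 3 (-0.23, edgeR adjusted p = 0.00298, range 0.00298 to 0.466 over its alternatives), with no filter on low counts or with a term for replicate number.

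**Figure D2:**
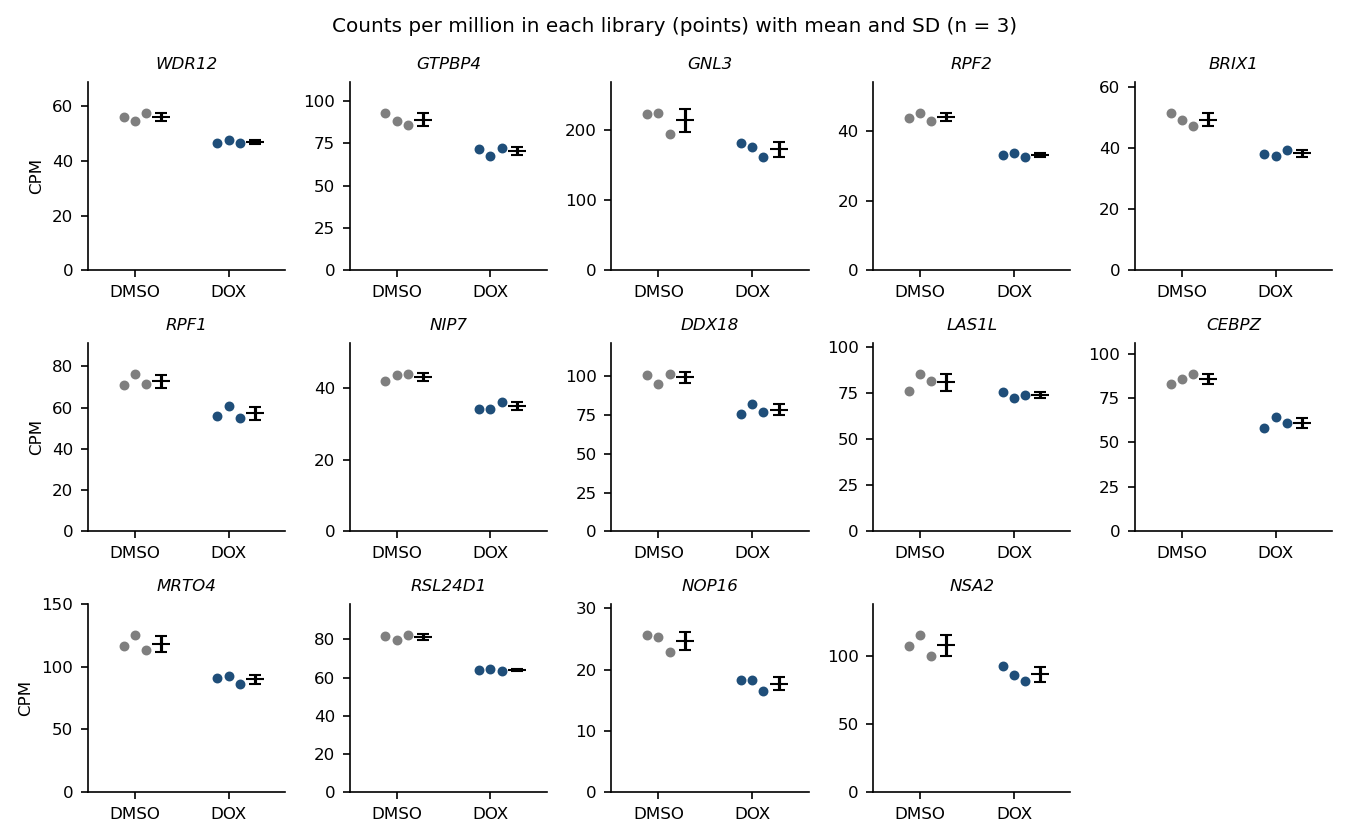
CPM of the 14 members described with every value, by library (points; axes start at 0), with the mean and SD of each group of 3. In each panel but that of LAS1L the DOX points lie clearly below the DMSO points; in that panel the lowest DMSO point, 76.1 CPM, is close to the highest DOX point, 75.9 CPM.

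Of 4 nucleolar GTPases 3 fell. GTPBP4 measured 93.0, 88.5 and 85.6 CPM in DMSO and 71.4, 67.8 and 72.5 CPM in DOX (log2 fold change -0.34, SE 0.0532, edgeR adjusted p = 4.76e-05), and with the correction it fell by 0.32. GNL3, known as nucleostemin for its abundance in stem cells and tumours, measured 223, 225 and 195 CPM in DMSO and 181, 176 and 161 CPM in DOX (-0.31, SE 0.0571, edgeR adjusted p = 2.61e-04). Both genes separated the groups. GNL2 fell by 0.24 on the log2 scale. The corrected values of GNL3 (-0.13) and GNL2 (-0.10) did not pass, and GNL3L passed in neither fit (-0.07 and -0.05).

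Of 8 DEAD-box RNA helicases, which remodel RNA at the cost of ATP, 4 fell and all 8 had values below 0. DDX18 measured 101, 94.9 and 101 CPM in DMSO and 75.7, 82.2 and 76.6 CPM in DOX, without overlap (log2 fold change -0.34, SE 0.0529, edgeR adjusted p = 3.83e-05), and DDX10 fell by 0.24. DDX24 and DDX56 were near the threshold. DDX24 fell by 0.14 (edgeR adjusted p = 0.0460) and DDX56 by 0.16 (edgeR adjusted p = 0.0469), and the groups of DDX56 overlapped. DESeq2 called neither. DDX54 (-0.10), DDX55 (-0.09), DDX51 (-0.03) and DDX27 (-0.01) did not pass. With GC content and length corrected 6 of the 8 fell, DDX54 and DDX51 among them at -0.26 and -0.17, and DDX56 stood at -0.22.

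Of the enzymes that modify the RNA, neither NOP2 nor FTSJ3 passed with TMM scaling. NOP2, which methylates a cytosine of the 28S RNA, went from 189 ± 7.28 to 174 ± 5.73 CPM (SD, n = 3 each), without overlap, and did not pass (-0.12, edgeR adjusted p = 0.0640, range 0.00205 to 0.287 over its alternatives). It passed after the correction (-0.18) and without DMSO replicate 3 (-0.15). GENCODE 29 lists a same-strand gene over 54.4% of NOP2's exon bases, so its count is uncertain. FTSJ3, which methylates ribose groups of the precursor, did not pass in either fit (-0.04 and -0.08). NIP7, a partner of FTSJ3, measured 41.9, 43.7 and 43.9 CPM in DMSO and 34.2, 34.2 and 36.1 CPM in DOX, without overlap (log2 fold change -0.31, SE 0.0589, edgeR adjusted p = 3.52e-04).

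None of the 5 members tied to ATP-driven removal of factors or to spacer cutting was called by edgeR or by DESeq2, though 4 of the 5 were lower at an unadjusted p under 0.05. LAS1L, of the enzyme that cuts the second internal spacer, measured 76.1, 85.5 and 81.5 CPM in DMSO and 75.9, 72.7 and 74.3 CPM in DOX. The groups almost touched, and LAS1L did not pass (log2 fold change -0.13, SE 0.0543, edgeR adjusted p = 0.0841, range 0.00575 to 0.308 over its alternatives), except without DMSO replicate 1 (-0.17) and after the correction (-0.19). NVL, an ATPase that releases WDR74 from the particle, stood at -0.15 and WDR74 at -0.13. WDR74 passed without DMSO replicate 3 (-0.17, edgeR adjusted p = 0.0457, range 0.0457 to 0.401 over its alternatives). Its exons share bases with the U2 small nuclear RNA gene RNU2-2P, so its count is uncertain. NLE1, an adaptor for the ATPase MDN1, stood at -0.11 and fell by 0.23 after the correction. MDN1 itself measured 56.8, 50.9 and 50.8 CPM in DMSO and 52.9, 54.8 and 59.0 CPM in DOX, with overlapping groups (0.07, -0.09 after the correction, neither called).

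Of 6 further factors of the precursor particles 5 fell. NOP16 measured 25.6, 25.2 and 22.9 CPM in DMSO and 18.3, 18.3 and 16.4 CPM in DOX, without overlap (log2 fold change -0.48, SE 0.0724, edgeR adjusted p = 2.93e-05). NSA2 measured 107, 115 and 100.1 CPM in DMSO and 92.3, 85.9 and 81.5 CPM in DOX, also without overlap (-0.31, SE 0.0577, edgeR adjusted p = 2.39e-04). The exons of NSA2 share 51.2% of their bases with FAM169A on the other strand, and its count is uncertain without a stated strand setting. EBNA1BP2 and MAK16 each fell by 0.27 on the log2 scale and SDAD1 by 0.16, while SURF6 (0.05) did not pass. After the correction NOP16 fell by 0.42 and EBNA1BP2 and MAK16 by 0.15 each. The corrected values of NSA2 (-0.14) and SDAD1 (0.00) did not pass.

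**Figure D3:**
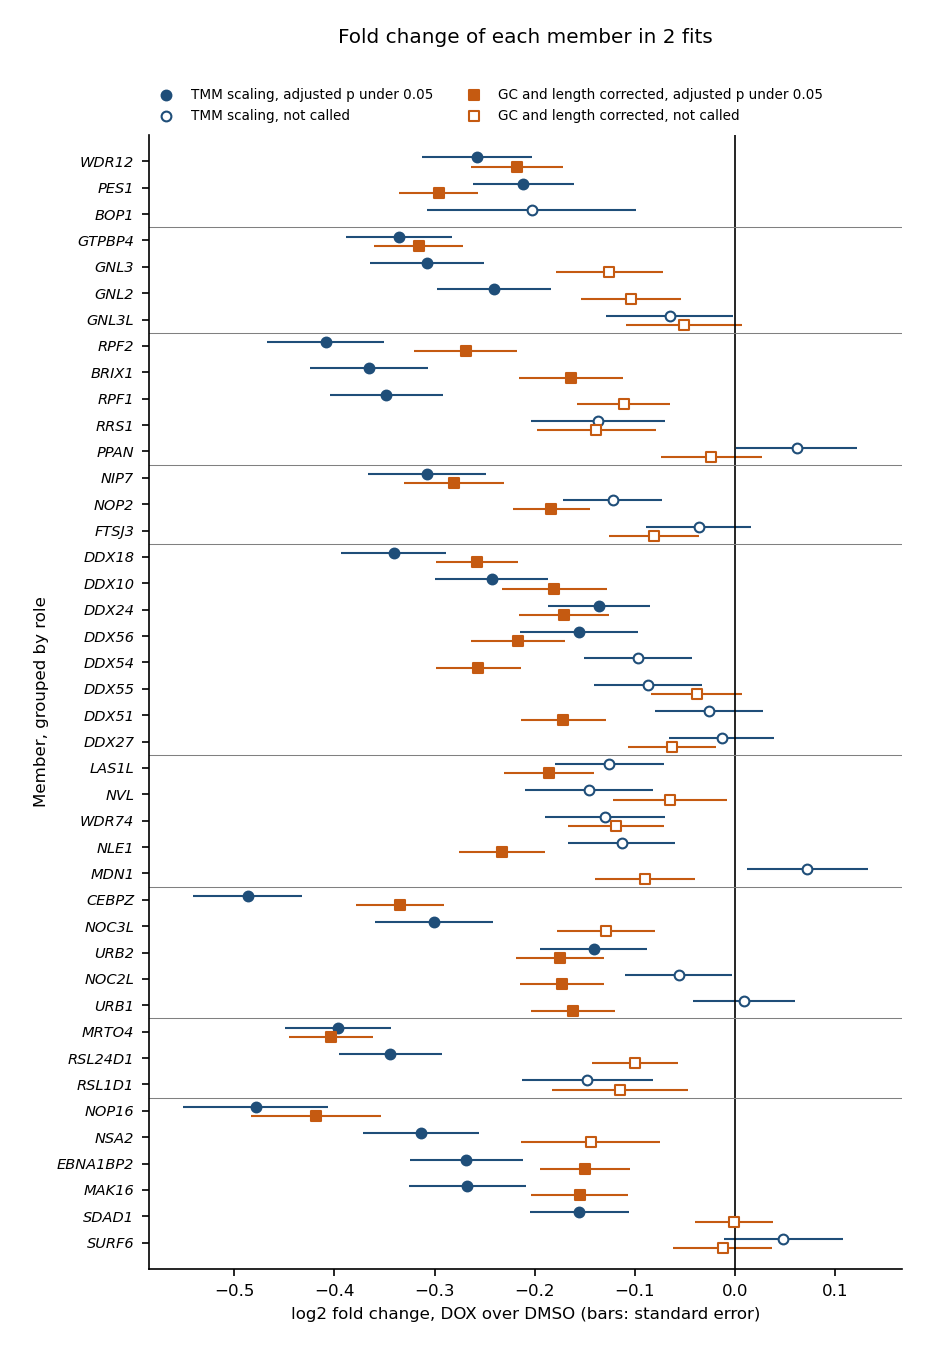
log2 fold change (DOX over DMSO) of each member with its standard error, by role, in the fit with TMM scaling (circles) and with GC content and length corrected (squares); filled symbols passed an adjusted p under 0.05. MRTO4, NOP16 and GTPBP4 are close in both fits, RSL24D1, RPF1 and SDAD1 move toward 0 with the correction, and URB1, DDX51 and NOC2L move away from it. BOP1 has no corrected value.

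The calls of DDX24, DDX56, URB2 and SDAD1 were near the threshold and were lost under many alternatives, both with all 6 libraries and with 1 left out. DDX24 was called in 5 of 16 alternatives (edgeR or DESeq2 adjusted p from 0.00674 to 0.213). It was not called with upper-quartile scaling (-0.09), library size alone (-0.09), DESeq2 (-0.13) or a filter of at least 1 CPM in 3 samples (-0.12). Without DMSO replicate 1, DOX replicate 1 or DOX replicate 2 it was not called either, though its value stayed at -0.14, and without DOX replicate 3 it was -0.12. Without DMSO replicate 2 the value itself was smaller, at -0.09. DDX56 was called in 7 of 16 (adjusted p from 0.00146 to 0.224), and not under the same scalings (-0.11 in both), DESeq2 (-0.15) or that filter (-0.14). It was also not called without DMSO replicate 1 (-0.16), DMSO replicate 2 (-0.10), DOX replicate 2 (-0.15) or DOX replicate 3 (-0.12). URB2 was called in 5 of 16 (adjusted p from 0.00708 to 0.204), and not under the same scalings (-0.09 and -0.10), DESeq2 (-0.14), that filter (-0.13) or no filter (-0.16). It was also not called without DMSO replicate 1 (-0.11), DMSO replicate 3 (-0.15) or DOX replicate 1 (-0.15), 2 (-0.14) or 3 (-0.14). SDAD1 was called in 8 of 16 (adjusted p from 0.0162 to 0.985), and not under the same scalings (-0.11 in both) or without DMSO replicate 1 (-0.15), DOX replicate 1 (-0.13) or DOX replicate 3 (-0.15). DDX54 gained a call without DMSO replicate 3 (-0.14, edgeR adjusted p = 0.0485, range 2.33e-04 to 0.546 over its alternatives). In GENCODE 29 the exons of 28 members share bases with another gene, 8 of them on the same strand, and 13 members have named pseudogene copies, so their counts carry some uncertainty. The copy SDAD1P1 held 109 to 160 counts per library. Copies that the count table does not list by name were not examined, and GNL3 has small nucleolar RNA genes within its introns and exons.

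In all 16 alternatives 13 members were lower: WDR12, PES1, GTPBP4, RPF2, BRIX1, NIP7, DDX18, DDX10, CEBPZ, MRTO4, NOP16, EBNA1BP2 and MAK16. The alternatives reuse the same libraries. The same count over all tested genes was not made, so whether 13 is a large number cannot be told.

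Members of low GC content fell more often. Of 23 members whose longest transcript in GENCODE 29 has a GC content below 50%, 19 fell, and of 18 members at or above 50% 4 fell: DDX56, MRTO4, NOP16 and PES1. Over all tested genes 23.8% of those below 50% were lower against 6.34% of the rest. The 23 members that fell had a median GC content of 41.4%, the 18 others with a GC value 53.6%, and all tested genes 48.5%. Across 41 members GC content and log2 fold change had a Pearson r of 0.61 and a Spearman rho of 0.61, and across 15036 tested genes 0.34 and 0.41. All genes share the same 6 libraries and are not independent replicates. The part of GC content in the members' results was not tested beyond the correction that follows.

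When a smooth trend of fold change with GC content and length was removed per library, 23 of 41 members fell and 0 rose, where 11.3% of all tested genes were lower. The median over members was then -0.16, against 0.01 over all genes. These sets of 23 were not the same: 16 members, or 69.6% of each set, were in both. The 7 that passed in the uncorrected fit alone were GNL2, GNL3, NOC3L, NSA2, RPF1, RSL24D1 and SDAD1. The 7 that passed in the corrected fit alone were DDX51, DDX54, LAS1L, NLE1, NOC2L, NOP2 and URB1. Below 50% GC 12 of 23 members were then lower, and at or above it 11 of 18. Over all tested genes 9.72% and 13.2% were lower in these ranges. In all, 30 members were lower in at least 1 of the fits and 12 were called in neither, counting BOP1, which had a value in the uncorrected fit alone. A real change that tracks GC content or length would be removed too.

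**Figure D4:**
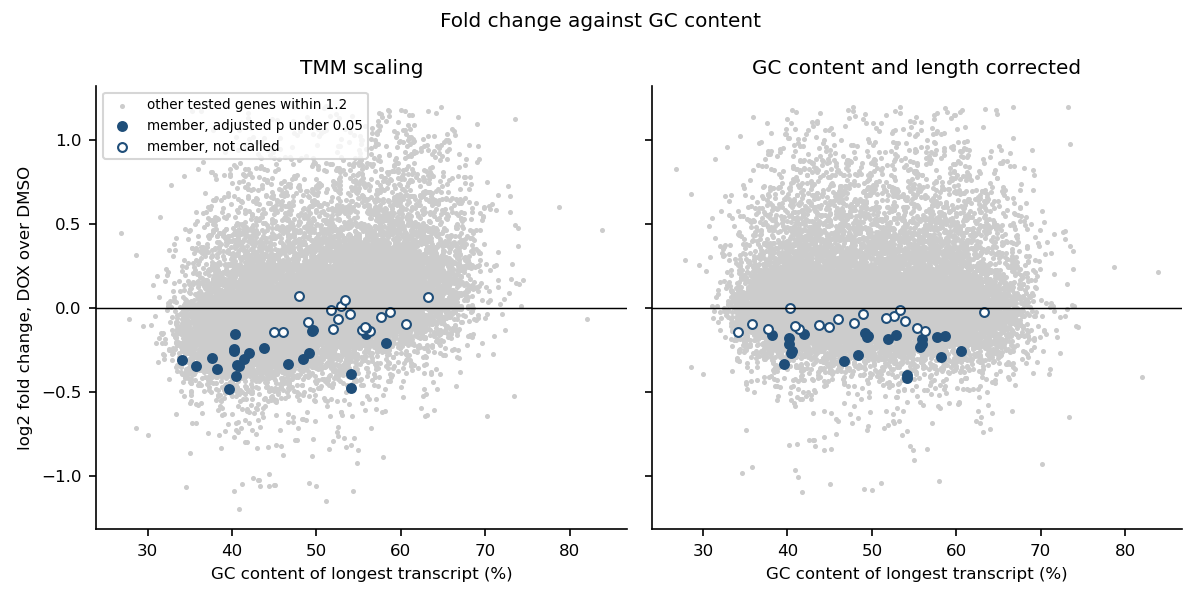
log2 fold change (DOX over DMSO) against GC content of the longest transcript for 41 members (blue, filled where called) and all other tested genes with a GC value (grey), with TMM scaling on the left and with GC content and length corrected on the right; 108 and 104 other genes beyond 1.2 in size are not drawn. On the left the members slope from low values at low GC to values near 0 at high GC, and on the right they lie below 0 across the range.

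Levels can be compared between genes only per length. Per kilobase of the longest transcript, which may not be the form that these cells use, GNL3 was highest of 41 members in DMSO, at 101 ± 7.99 CPM per kb, followed by RSL1D1 at 65.9 ± 7.06, NOP2 at 62.2 ± 2.40 and EBNA1BP2 at 61.4 ± 2.98 (SD, n = 3). The last 3 lay within their spread of one another, and GNL3 stood apart from them. In DOX the level of GNL3 was 81.7 ± 4.99 CPM per kb. MDN1, with the longest transcript, was lowest in DMSO at 2.87 ± 0.188 CPM per kb, and WDR12 was next at 6.91 ± 0.178. Within the PeBoW complex PES1 stood at 49.8 ± 2.51 CPM per kb.

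The sequence CACGTG, an E-box, is the classical site that MYC binds together with MAX. RefSeq promoter sequences (GRCh38.p14) were matched by symbol for 35 members, and the 250 bases before the start site were searched on both strands. CACGTG was found in 5 of 39 promoter entries of members, or 12.8%, and in 7.37% of 22199 promoters of protein-coding genes. The variant CACGCG was found in 6 of the 39, or 15.4%, against 12.2% of the promoters of protein-coding genes. Of the 5 genes with CACGTG, 2 fell, EBNA1BP2 and SDAD1, and of the 30 genes without it 17 fell. Of the 6 genes with CACGCG (BRIX1, CEBPZ, DDX10, DDX56, MRTO4 and NOC2L) 5 fell, and of the 29 others 14. A match describes the letters only. The 5 windows with CACGTG are shown because they hold the canonical site in genes that fell and in genes that were not called; each has up to 40 bases on either side, is written 5′ to 3′ on the gene's strand, which is the minus strand for all 5, and has the E-box in capitals.
EBNA1BP2: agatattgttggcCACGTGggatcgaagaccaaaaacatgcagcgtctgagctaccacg
SDAD1: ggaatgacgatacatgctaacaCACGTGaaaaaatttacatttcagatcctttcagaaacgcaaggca
DDX54: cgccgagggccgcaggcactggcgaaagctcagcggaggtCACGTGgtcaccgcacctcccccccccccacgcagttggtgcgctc
MDN1: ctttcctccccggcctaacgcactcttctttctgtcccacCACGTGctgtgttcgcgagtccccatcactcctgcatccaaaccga
SURF6: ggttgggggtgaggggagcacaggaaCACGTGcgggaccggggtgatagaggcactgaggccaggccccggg
The windows lie at chr1:43172762-43172820 for EBNA1BP2, chr4:75991128-75991195 for SDAD1, chr12:113185494-113185579 for DDX54, chr6:89819904-89819989 for MDN1 and chr9:133336367-133336438 for SURF6. The E-box begins 237, 228, 61, 155 and 224 bases before the start site in that order, so that of DDX54 is nearest. EBNA1BP2 has another promoter entry with a different start site, and it holds no CACGTG. For MDN1 and SURF6 the bases after the start site were not found at the start of a GENCODE 29 transcript, so their distances are uncertain. With GC content and length corrected, DDX54, which did not pass in the uncorrected fit, fell by 0.26 and EBNA1BP2 by 0.15. SDAD1 (-0.001), MDN1 (-0.09) and SURF6 (-0.01) were then not called.

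Other genes of the pathway were read from a pair of further lists. Of 23 other nuclear factors of the large subunit, 12 fell and 1 rose, with a median of -0.18. Of all tested genes 15.5% were lower and 13.8% higher. At an unadjusted p under 0.05, 14 of the 23 were lower and 1 higher, and DESeq2 called 11 lower and 1 higher. PUM3 (KIAA0020 in the table), an RNA-binding nucleolar protein, fell by 0.40 on the log2 scale from 91.3 ± 4.54 to 69.3 ± 1.04 CPM (SD, n = 3 each). TMA16 fell by 0.37, PAK1IP1 by 0.41 and NIFK, which also binds the Ki-67 protein, by 0.38. The 1 that rose was NOP53 (GLTSCR2 in the table), which recruits the RNA exosome to the particle, at 0.17 (edgeR adjusted p = 0.0263). That call was lost without DMSO replicate 3 (0.10), DOX replicate 1 (0.17) or DOX replicate 3 (0.14) and with the correction (0.01). After the correction 14 of the 23 fell and 0 rose, where 11.3% of all tested genes were lower. PUM3, TMA16, PAK1IP1 and NIFK then fell by 0.24, 0.15, 0.19 and 0.15.

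Of 11 genes of export and cytoplasmic maturation 4 fell and 0 rose by edgeR (4 and 0 at an unadjusted p under 0.05, and by DESeq2), with a median of -0.10. By edgeR 15.5% of all tested genes were lower and 13.8% higher. PA2G4, whose yeast counterpart is an export factor of the large subunit, fell by 0.43 from 764 ± 61.9 to 565 ± 47.5 CPM, and the exportin XPO1 by 0.28 from 350.4 ± 21.6 to 289 ± 11.97 CPM (SD, n = 3 each). DNAJC21 fell by 0.25 and NMD3, the adaptor between the subunit and XPO1, by 0.26, the latter not after the correction (-0.09). The remaining 7, among them EIF6 (-0.13), SBDS (-0.09) and LSG1 (-0.10), which act in the last steps, did not pass. Whether the early and the late factors differ as groups was not tested.

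A count of 23 members in the authors' deposited table had an adjusted p-value under 0.05, all with a negative log2 fold change, where 15.6% of the 13767 genes with an adjusted p-value were lower. Of these 23, 22 were also called by edgeR. DDX56 was called by edgeR alone, and NOP2 in the authors' deposited table alone.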

How the data were processed

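RNA-seq of 6 samples was used, read from both ends over 100 bp in strand-specific libraries, per the labels' protocols. The authors deposited raw read counts per gene, without normalization, and a comparison table that gives each gene's mean signal (normalized counts), log2 fold change and standard error, test score and p-values. STAR 2.5.2a, featureCounts, DESeq2 1.12.4 and hg19 are named per the submitters' processing notes, with no roles. The sources used here do not name the annotation or the strand setting of the counting.

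Genes were kept with filterByExpr at its defaults (15492 genes, at least 99.88% of each library's counts), scaled with TMM and tested by quasi-likelihood in edgeR 4.0.16 under R 4.3.3 with a treatment term and Benjamini-Hochberg adjustment over all tested genes. SE is the size of the log2 fold change over the root of F. DESeq2 1.42.0, other scalings and filters, leaving out libraries, a replicate block and a correction for GC content and length were the alternatives. The correction fitted natural splines (5 degrees of freedom each) per library to log2 CPM deviations (prior count 2), using genes whose mean log2 CPM exceeded 2, and entered as an offset. GC content and length came from the longest GENCODE 29 transcript by gene identifier, for 97.1% of tested genes and 41 of 42 members. GENCODE 29 is of GRCh38, so exon overlaps are as annotated there. The fits were run on simulated data that held no trend with GC content or length. The pass rule covered false calls and folds larger than that of any member. It therefore covers neither the removal of such a trend nor changes of the members' size.

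The members, lists, tests and alternatives were chosen with earlier results of these data known. Every value is given for the 12 called members with the smallest p and for the first of each role by p; those of BOP1 and MDN1, and the promoter windows of DDX54, MDN1 and SURF6, were added after their values were seen. The labels state no pairing of the samples by replicate number.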

Additional observations from a re-analysis of the deposited data

How the results depend on the processing

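Over 16 alternatives the count of members lower ran from 19 to 27 and the count higher was 0 in each, with 34 of 42 members below 0 in each alternative that gave them a value (14 for BOP1, which the correction leaves out). Leaving out 1 library gave 19 to 27 lower members and medians of -0.22 (without DMSO replicate 3) to -0.15. URB1 turned from 0.01 to -0.16 with GC content and length corrected, also with the replicate block. With upper-quartile scaling 1585 of all genes were lower instead of 2408; this scaling moved the median of all genes to 0.05. The 1 rise among other nuclear factors was 0 without DMSO replicate 3, DOX replicate 1 or DOX replicate 3 (range 0 to 1 over left-out libraries) and 0 with the correction, with or without the block. The causes were not tested.

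Same-numbered samples did not deviate together (r of -0.06, -0.23 and 0.09 over 10864 genes). Of differently numbered samples, DMSO replicate 2 and DOX replicate 1 had an r of 0.32 and DMSO replicate 3 and DOX replicate 2 an r of 0.24. The others lay between -0.28 (DMSO replicate 3 and DOX replicate 1) and 0.08 (DMSO replicate 1 and DOX replicate 3). Deviations were taken from each group's mean, so a sample's r values partly offset one another and cannot show whether samples were paired. Leaving out DMSO replicate 2 and DOX replicate 1 together gave 20 lower members. With the replicate block 22 members were lower, 21 of them also lower without it: DDX24 (-0.13) and URB2 (-0.14) were not called and RSL1D1 was. With the block and the correction 24 were lower, and GNL3, not called with the correction alone, was called at a value of -0.12 (adjusted p = 0.0386, range 4.56e-08 to 0.0955 over its alternatives).

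Depth limits BOP1 most, at 221 to 309 counts per library.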
